A study of Mus musculus with 4 samples.

Results

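Fibrotic spots of the injured mouse cortex were compared at 7 days post-injury (dpi) according to whether a spot held a UMI of *Cthrc1*. They came from 1 Visium capture area, a glass square on which a grid of barcoded spots takes up polyadenylated RNA of the tissue laid over it. A spot was taken as fibrotic when it had at least 5 *Col1a1* UMIs (unique molecular identifiers, 1 per captured transcript) per 10000 UMIs and at least 5000 UMIs in all. It was Cthrc1-positive with 1 or more *Cthrc1* UMIs and Cthrc1-negative with 0. There were 389 such spots among the 9340 tissue spots of the series, 215 positive and 174 negative. Spots were thus chosen by *Cthrc1*, *Col1a1* and total UMIs, and these values are given below as a description with no test.

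The capture area carried brain slices of wild-type (WT) mice after photothrombotic (PT) injury, in which a light-activated dye clots the vessels of a patch of cortex. It held 2 slices from 2 mice, and each connected piece of tissue was taken as 1 slice. The other areas carried WT tissue at rest and at 2 dpi, WT tissue at 21 dpi, and tissue of Cthrc1(creER); R26(DTA) mice at 21 dpi, called deleter here. In deleter mice a Cre recombinase driven from *Cthrc1* was meant to switch on diphtheria toxin in Cthrc1-expressing cells, and per the labels these mice were discarded because no deletion could be detected. Every area held 2 slices. The labels do not say which slice of the first area was at rest, so its slices carry no time here.

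*Cthrc1* (collagen triple helix repeat containing 1) encodes a secreted glycoprotein that is made at sites of tissue repair and is widely used to mark fibroblasts with high matrix output. *Col1a1* encodes the main chain of type I collagen, the bulk protein of scar. After brain injury, fibroblasts of the meninges and of vessel walls multiply and lay down a collagen core, which is filled with macrophages and walled off by reactive astrocytes. Each spot covers a small patch that can hold several of these cells, so a spot with a *Cthrc1* UMI is a place and not a cell. Levels are shares of all UMIs in the summed spots. A lower level can thus mean fewer cells of a type, less RNA per cell or more RNA of other genes. These cannot be told apart here. *Cthrc1* lies on chromosome 15 (chr15:39076932-39087121, plus strand, GRCm38) and *Col1a1* on chromosome 11 (chr11:94936224-94953042, plus strand).

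The slices at 7 dpi covered 978 and 947 spots with a median of 14570 and 14223 UMIs per spot. Slice 1 held 54 of the fibrotic spots and slice 2 held 335, so that most of what follows was weighted to slice 2. The *Col1a1* minimum was also met by 58 spots of slice 1 and 57 of slice 2 that lay under 5000 UMIs and were left out. Just inside the *Col1a1* minimum, at 5 to 6 UMIs per 10000, were 7 and 23 spots, of which 1 and 8 were positive. Just outside it, at 4 to 5, were 14 and 16 spots, of which 2 and 4 were positive. Between 5000 and 6000 UMIs lay 12 and 38 fibrotic spots, and 15 and 36 further spots with enough *Col1a1* lay between 4000 and 5000.

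Fibrotic spots held a large part of all *Cthrc1* in slice 2 and a smaller part in slice 1. In slice 2 they were 35.4% of the tissue spots and 30.8% of the UMIs, and carried 456 of 603 *Cthrc1* UMIs (75.6%). In slice 1 they were 5.52% of the spots and 4.28% of the UMIs, and carried 79 of 361 *Cthrc1* UMIs (21.9%). Of the *Col1a1* UMIs they carried 89.6% and 43.8%. The map shows them along 1 side of each slice, at the ragged margin of slice 1 and in a broad band under the margin of slice 2. In slice 1, 13 of 23 positive and 21 of 31 negative spots were edge spots, against 43 of 192 and 23 of 143 in slice 2. Neighbours of positive spots were positive more often than neighbours of negative spots, 68.6% against 51.1% of the fibrotic neighbours in slice 2 and 58.5% against 52.9% in slice 1.

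**Figure D1:**
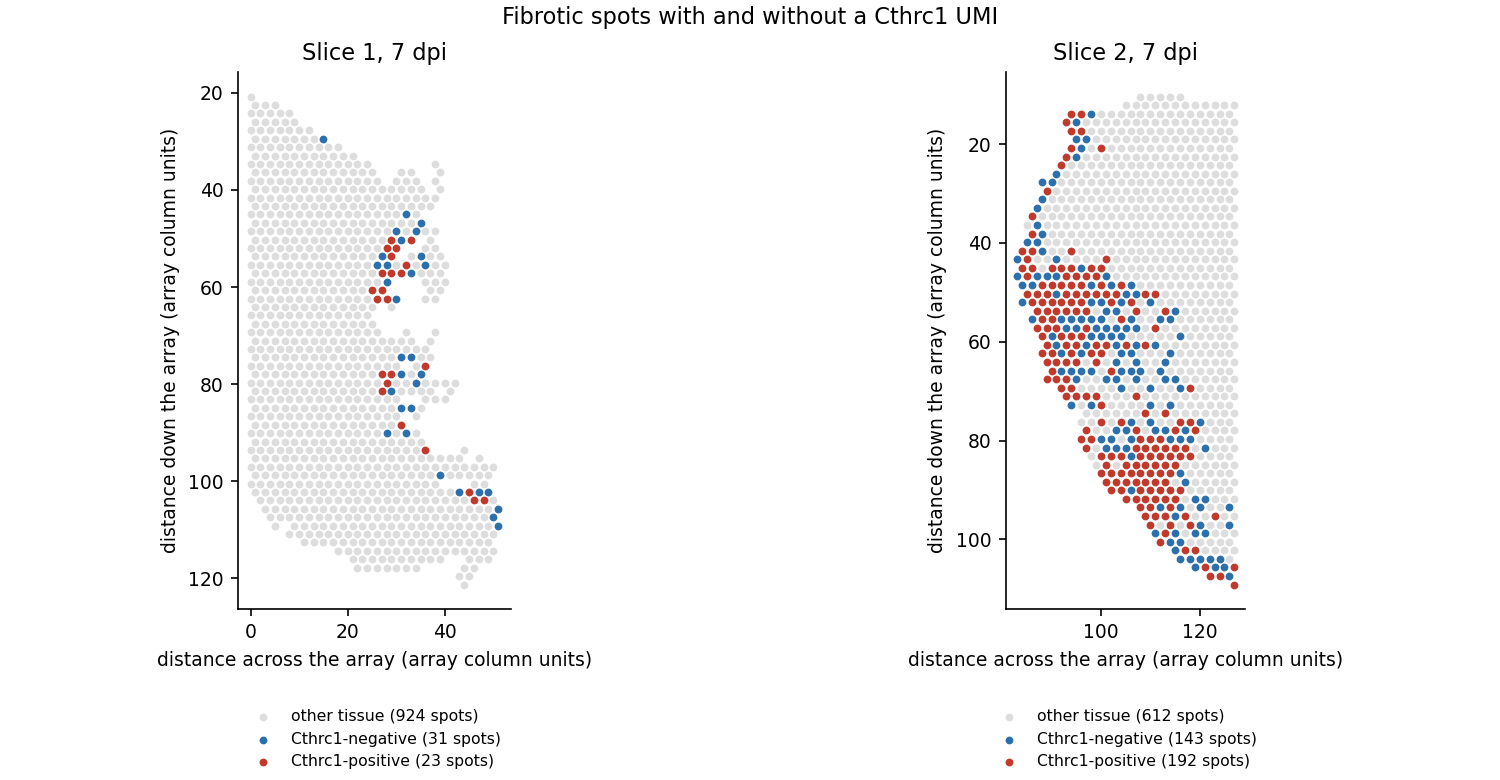
Tissue spots of both slices at 7 dpi drawn at their place on the array, with both axes in array column units (neighbouring spots of a row lie 2 units apart); each point is 1 spot, red for Cthrc1-positive, blue for Cthrc1-negative and grey for other tissue. Slice 2 holds 192 positive and 143 negative spots in a dense band along its left margin, and slice 1 holds 23 and 31 scattered along its ragged right margin.

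Cthrc1-positive spots were deeper and richer in *Col1a1* than negative spots in both slices. In slice 1 the positive set summed to 333342 UMIs with a median of 13121 per spot (5276 to 32318), and the negative set to 309720 with a median of 6626 (5104 to 31802). In slice 2 the sums were 2753883 and 1405684 UMIs and the medians 13093.5 (5061 to 42919) and 8460 (5034 to 24293). The positive medians lay at about the same depth in both slices, and the ranges of the sets overlapped, with the deepest positive spots of slice 2 above every negative one. The median *Col1a1* level was 14.7 per 10000 UMIs in positive and 7.89 in negative spots of slice 1, and 26.5 and 13.5 in slice 2. The most *Col1a1* in slice 1 was in a negative spot (85.0 per 10000, at 6000 UMIs), and the most in slice 2 in a positive spot (380).

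**Figure D2:**
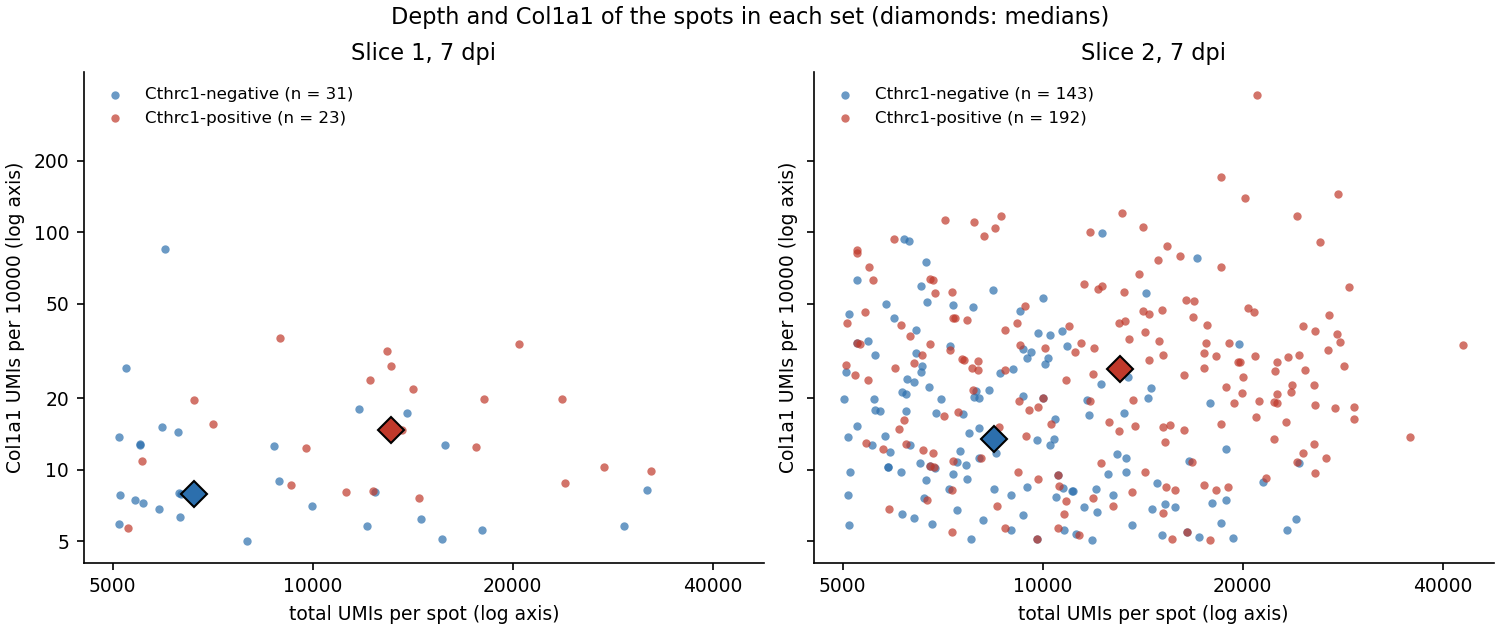
Total UMIs (x, log axis) and Col1a1 UMIs per 10000 (y, log axis) of each fibrotic spot at 7 dpi, 1 panel per slice, red for Cthrc1-positive and blue for Cthrc1-negative; diamonds mark the medians. Positive medians lie to the upper right of negative ones (13121 against 6626 UMIs in slice 1, 13093.5 against 8460 in slice 2), and both clouds overlap.

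A *Cthrc1* UMI was found in 23 of 54 fibrotic spots of slice 1 (42.6%, 95% exact binomial interval 29.2 to 56.8) and in 192 of 335 of slice 2 (57.3%, 51.8 to 62.7). Intervals cover counting error only. After each spot was thinned to 5000 UMIs, the shares were 25.9% and 38.5%. Spots of the same slices without any *Col1a1* UMI, with a median of 16573 and 17402.5 UMIs, held a *Cthrc1* UMI in 24.7% and 15.5% of cases, and in 8.14% and 4.87% once thinned. Once thinned, these spots give the share away from *Col1a1* at equal depth, as a description, since *Col1a1* and *Cthrc1* both chose the spots. The source of their *Cthrc1* UMIs was not tested. In WT tissue at 21 dpi the thinned share among spots meeting the same minimums was 8.61% of 151 and 7.94% of 189, and in deleter tissue 4.37% of 252 and 3.91% of 179. Spots without *Col1a1* had thinned shares of 4.09% and 5% in the same WT slices, and of 4.04% and 4.64% in the deleter slices. At rest and at 2 dpi only 6 spots met the minimums.

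Detection of *Cthrc1* climbed with *Col1a1* and with depth. In slice 2 the share positive was 37.5%, 53.8%, 63.0% and 76.4% at 5 to 10, 10 to 20, 20 to 40 and 40 or more *Col1a1* UMIs per 10000. The median depth of these classes stayed between 9527 and 11093.5 UMIs. In slice 1 it was 25.9%, 52.6% and 85.7% in the lower classes of 27, 19 and 7 spots, and the highest class held 1 negative spot. Between 5000 and 7500 UMIs 43.3% of slice 2 spots were positive, against 81.6% at 15000 or more, and the same classes of slice 1 had 19% and 58.3%. Depth and *Col1a1* thus differed between the sets in every comparison of all fibrotic spots at 7 dpi below. Values from matched or thinned spots are given beside the first ones.

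Summed over spots and tested across genes, 991 of 10293 genes (9.63%) differed between the sets at 7 dpi by edgeR's quasi-likelihood test with slice as a block and a Benjamini-Hochberg adjusted p under 0.05. Many matrix genes, some proteases and some chemokines were higher in Cthrc1-positive spots, and many neuronal, astrocyte, myelin and mitochondrial genes were lower. Of the 991 genes, 354 were higher (3.44%) and 637 lower (6.19%). These shares of all tested genes stand beside every count of a gene list at 7 dpi below. The median log2 fold change over all tested genes was 0.01. Between the slices, 933 of the 991 genes had the same sign and 58 did not. Over all tested genes 6205 of 10293 had the same sign. Sums said below not to overlap are 2 against 2, as a description. The share of all genes with such sums was not counted. The low-count filter kept 10293 of 18200 genes with a UMI in these spots. The calls rest on 4 sums with 1 residual degree of freedom. The spread used was shared across genes and not each gene's own, with a common biological coefficient of variation of 0.0979. Each SE below is the log2 fold change, without its sign, over the square root of the test's F value. At 7 dpi it thus does not measure how far the 2 slices differ for that gene.

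No gene passed this test when 8 positive and 8 negative spots of slice 1 and 96 and 96 of slice 2, matched on both total UMIs and *Col1a1*, were compared. At an unadjusted p under 0.05 there were then 184 of 8552 genes. Matching on total UMIs alone also gave 0 (584 at an unadjusted p under 0.05), and matching on *Col1a1* alone gave 2 higher and 4 lower. Thinning every spot to 5000 UMIs gave 11 higher and 6 lower. After thinning, the sets were made again from the *Cthrc1* UMIs left. Positive spots then numbered 14 of 54 in slice 1 and 129 of 335 in slice 2, and the rest counted as negative. DESeq2 called 23 higher and 33 lower, of which 21 and 31 were also called by edgeR. The fit without the slice block called none, with 917 genes at an unadjusted p under 0.05. Of the 991 genes, 938 could be tested in the spots matched on both measures and 897 kept their sign there. Calls named below are those over all 389 spots, and the fold changes in matched or thinned spots carry no call unless one is stated.

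Several fibrillar collagens were higher in positive spots. *Col3a1*, a chain of type III collagen that is laid down early in wounds, measured 1538 and 1965 CPM (counts per 1e+06 UMIs) in the negative sums of slices 1 and 2 and 2893 and 4021 CPM in the positive sums. Both positive sums lay above both negative sums. The log2 fold change was 0.98 ± 0.18 (SE, adjusted p = 8.2e-06 by edgeR's quasi-likelihood test). *Col5a2*, a type V chain that sets fibril diameter, measured 200 and 239 CPM against 423 and 492 (log2 fold change 1.06 ± 0.17, adjusted p = 2.4e-07), and its sets did not overlap either. It was also called after thinning (0.82, adjusted p = 0.00052). *Col1a2*, the partner chain of *Col1a1* in type I collagen, went from 929 to 1453 CPM in slice 1 and from 1402 to 2763 in slice 2 (0.83 ± 0.17, adjusted p = 0.00018). Its matched fold change on both measures was 0.23, against 0.21 for *Col3a1* and 0.55 for *Col5a2*.

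Across the family without *Col1a1*, 14 of 19 collagens tested were higher and 0 lower, with a median log2 fold change of 0.73 (0.39 to 1.07). Beyond the fibrillar chains these included the basement membrane chains *Col4a1* (0.72) and *Col4a2* (0.93), the microfibril chains *Col6a1* (0.71) and *Col6a3* (1.01), and *Col12a1* (0.85), which coats fibrils. *Col15a1*, a basement membrane collagen, was highest at 1.07. *Col12a1* (0.93) and *Col8a1* (0.75) were among the 5 collagens called after thinning. *Col14a1*, *Col16a1*, *Col6a2*, *Col5a3* and *Col8a2* did not pass. Over the matched sets the collagen median was 0.74 with equal depth, 0.33 with equal *Col1a1* and 0.27 with both, with 15 of 19 collagens above 0 at equal *Col1a1* and 18 of 18 tested with both. *Col1a1* itself went from 1077 to 1755 CPM and from 1928 to 3657, which the minimum for entry had used.

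**Figure D3:**
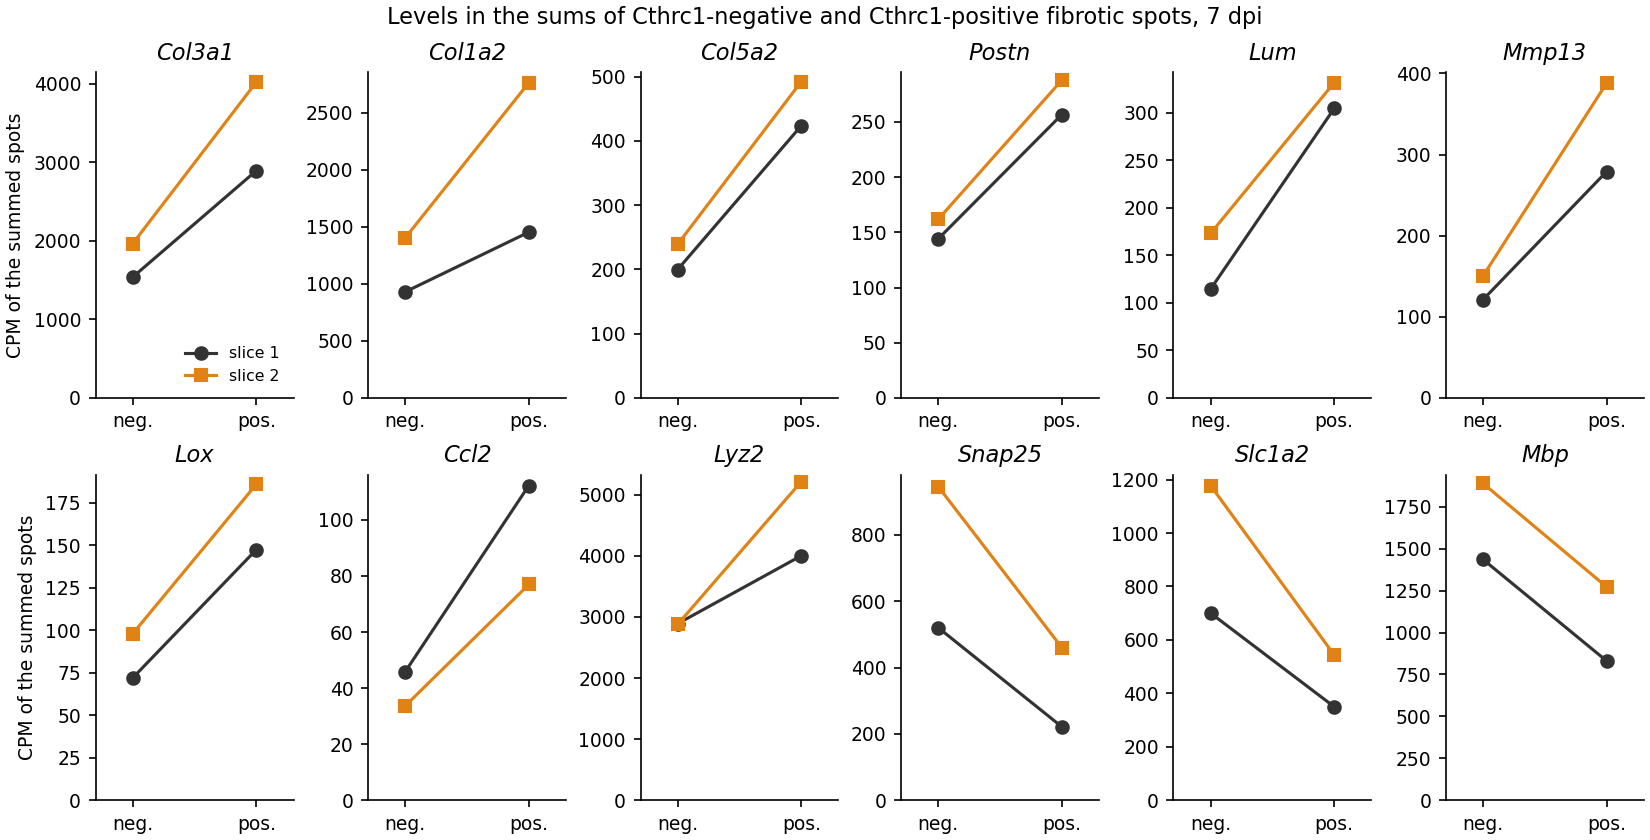
CPM (y, linear from 0) of 12 genes in the sum of Cthrc1-negative (neg.) and Cthrc1-positive (pos.) fibrotic spots, with 1 line per slice at 7 dpi and no error bars, since each point is 1 sum. Matrix genes and Ccl2 and Lyz2 are higher in the positive sum of both slices (Col3a1 1538 to 2893 and 1965 to 4021), and Snap25, Slc1a2 and Mbp are lower (Snap25 520 to 221 and 946 to 460).

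Promoters of 3 of the matrix genes that moved together are shown, from 250 bases before to 50 after the RefSeq start site (GRCm38.p6, plus strand). Capitals mark matches to the AP-1 motif TGANTCA and to the TATA box TATAAA, searched on both strands with no overlap between them.
Col1a2 (chr6:4505368-4505667): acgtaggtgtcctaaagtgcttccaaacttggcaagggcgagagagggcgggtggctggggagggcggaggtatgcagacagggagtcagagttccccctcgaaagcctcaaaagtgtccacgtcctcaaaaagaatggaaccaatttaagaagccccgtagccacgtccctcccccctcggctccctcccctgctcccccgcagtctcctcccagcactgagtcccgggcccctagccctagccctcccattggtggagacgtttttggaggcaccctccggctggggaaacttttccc
Col3a1 (chr1:45311288-45311587): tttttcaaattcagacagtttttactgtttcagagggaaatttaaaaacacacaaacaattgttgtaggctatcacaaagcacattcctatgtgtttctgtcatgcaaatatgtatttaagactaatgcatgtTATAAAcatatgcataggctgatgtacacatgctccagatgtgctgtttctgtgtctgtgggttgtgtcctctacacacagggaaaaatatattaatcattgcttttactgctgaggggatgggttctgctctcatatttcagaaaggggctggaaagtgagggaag
Mmp13 (chr9:7272264-7272563): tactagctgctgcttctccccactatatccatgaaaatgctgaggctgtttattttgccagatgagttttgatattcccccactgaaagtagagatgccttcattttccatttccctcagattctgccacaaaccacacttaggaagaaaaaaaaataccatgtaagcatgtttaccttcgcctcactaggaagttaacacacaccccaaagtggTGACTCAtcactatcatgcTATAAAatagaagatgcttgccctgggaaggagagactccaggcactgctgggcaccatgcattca
*Mmp13* held 1 match to each motif, *Col3a1* 1 TATA box and *Col1a2* neither. Over 32851 promoter windows of this length, 7.81% held the AP-1 motif and 13.6% the TATA box. The short Smad element CAGAC was found once in *Col1a2*, 2 times in *Col3a1* and 0 times in *Mmp13*, and in 49.6% of all windows. Of 16 collagens with a promoter in the table, 1 held the AP-1 motif, 1 the TATA box and 9 CAGAC. Such a match is a string of letters and no evidence of binding.

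Enzymes that cut matrix stood beside the collagens. *Mmp13*, a collagenase that opens the fibrillar triple helix, measured 121 and 150 CPM in negative sums and 279 and 388 in positive sums. The sets did not overlap, and the log2 fold change was 1.32 ± 0.17 (adjusted p = 1.2e-10, edgeR). *Mmp13* was called after thinning (0.93, adjusted p = 0.00048) and by DESeq2 (adjusted p = 0.00048), and its fold change was 0.50 with both measures matched. *Mmp14*, a membrane protease that activates other metalloproteinases, measured 108 and 86.6 CPM against 208 and 167 (0.95, adjusted p = 3.9e-05). In all, 8 of 17 proteases and inhibitors were higher and 0 lower, with a median of 0.72. The stromelysin *Mmp3* was called at 1.37, with 19.6 to 160 CPM in slice 1 and 23.6 to 37.6 in slice 2, so that slice 1 decided its size, and after thinning it was -0.43. The inhibitor *Timp1* was higher (0.72), and *Timp2* (0.30) and *Timp3* (0.18) did not pass.

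Among enzymes that process and crosslink collagen, 5 of 17 were higher and 0 lower (median 0.50). Their median was 0.43 after thinning and 0.12 with both measures matched. *Lox*, the lysyl oxidase that links collagen and elastin chains, measured 72.0 and 98.0 CPM in negative sums and 148 and 186 in positive sums (0.95 ± 0.19, adjusted p = 6.0e-05, edgeR). *Serpinh1*, the collagen chaperone HSP47, measured 383 and 412 CPM against 581 and 670 (0.66, adjusted p = 0.0025). For both genes the positive sums lay above the negative ones. *Loxl1*, *Crtap* and *P4hb* were the others called.

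Proteins that decorate or organise the matrix were higher as well, 11 of 17 matricellular and elastic fibre genes with 0 lower and a median of 0.68. That median was 0.43 after thinning, 0.23 with *Col1a1* matched and 0.34 with both measures matched. *Spp1*, which encodes osteopontin and is made in quantity by lesional macrophages, measured 14432 and 8992 CPM against 19464 and 17178 (0.68 ± 0.20, adjusted p = 0.014, edgeR). *Thbs2*, a thrombospondin of repairing tissue, measured 105 and 155 CPM against 202 and 276 (0.87, adjusted p = 6.5e-05). *Ccn2*, a growth factor-binding protein induced by TGFβ, was at 0.87, *Fbn1* (fibrillin) at 0.75 and *Eln* (elastin) at 0.59. *Tnc* (0.52) did not pass.

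Of 7 small leucine-rich proteoglycans, which coat collagen fibrils, 3 were higher. Their median was 0.54, against 0.65 after thinning and 0.19 with both measures matched (5 tested in each). *Lum* measured 115 and 173 CPM against 305 and 332 without overlap (1.07 ± 0.17, adjusted p = 2.7e-07, edgeR), and *Bgn* was at 0.59. *Dcn*, called at 0.54, moved in slice 2 only, from 281 to 566 CPM, and measured 651 and 619 in slice 1. *Fmod* and *Ogn* did not pass and differed in sign between the slices (-2.34 and 0.67 for *Fmod*, -1.80 and 0.75 for *Ogn*), although *Fmod* was called after thinning (0.83, adjusted p = 0.044, edgeR).

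Of 11 myofibroblast and contractile genes 4 were higher and 0 lower, with a median of 0.43. *Postn* (periostin) measured 144 and 162 CPM in negative sums and 257 and 288 in positive sums, with no overlap (0.83 ± 0.17, adjusted p = 9.4e-05, edgeR). It was called after thinning (0.74, adjusted p = 0.027), and with *Col1a1* matched it was 0.03. *Fn1* (fibronectin) measured 1001 and 887 CPM against 1463 and 1566 (0.70, adjusted p = 0.0017). *Lrrc15*, a surface protein of activated fibroblasts, was called at 1.13 with 3.27 to 16 and 17.2 to 35.4 CPM, on few UMIs in slice 1. *Cald1* was called at 0.47 by a narrow margin. The contractile genes *Acta2* (0.43), *Tagln* (0.41), *Myl9* (0.39), *Tpm1* (0.07) and *Tpm2* (0.32) did not pass, and neither did *Fap* (0.78). In spots matched on both measures *Acta2*, *Tagln* and *Cald1* were at 0.52, 0.61 and 0.52, and *Postn* and *Fn1* at 0.08 and 0.41. Of the 7 fibroblast markers tested, which share members with the lists above, 5 were higher. Their summed level was 34.8 and 51.9 per 10000 UMIs in the negative and positive set of slice 1 and 41.4 and 82.0 in slice 2.

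Some genes of the growth factor signals that act on fibroblasts passed, beside 3.44% of all tested genes called higher. Of 14 TGFβ ligands, receptors and activators 3 were higher, the receptor *Tgfbr2* (0.54), the latent TGFβ binding protein *Ltbp3* (0.63) and the integrin *Itgb1* (0.54). The ligands *Tgfb1* (0.48), *Tgfb2* (0.05) and *Tgfb3* (0.50) did not pass. *Tgfbr2* measured 167 and 154 CPM in slice 1 and 112 and 196 in slice 2. Of 8 response genes tested, *Ccn2* alone passed. In the PDGF axis 1 of 5 did, the ligand *Pdgfc* (1.38), with opposite signs in the slices. The receptors *Pdgfra* (0.52) and *Pdgfrb* (0.59) did not. In the IGF axis *Igf1* (0.50) and *Igfbp7* (0.55) were higher and *Igfbp2* (-0.58) lower.

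CTHRC1 protein is known to bind Wnt ligands and Frizzled receptors of the planar polarity branch. Of 11 such genes tested 1 was higher, the receptor *Fzd1*, with 13.1 and 24.3 CPM in negative sums and 28.9 and 58.4 in positive sums (1.24 ± 0.30, adjusted p = 0.0016, edgeR). Positive sums lay above negative sums for *Fzd1*, though its slice 1 sums held few UMIs. The ligand *Wnt5a* measured 22.9 and 13.6 CPM against 64.2 and 21.5 (0.92, adjusted p = 0.096), and the median of the list was 0.16. Of 3 secreted Wnt modulators tested 2 were higher, *Sfrp4* (1.25) and *Dkk2* (1.43). After thinning *Sfrp4* was at 0.05.

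Of 12 chemokines and myeloid growth factors tested 6 were higher and 1 lower, with a median of 0.67. The median was 0.15 in slice 1 alone and 0.77 in slice 2 alone. It was 0.11 after thinning and 0.43 with both measures matched. *Ccl2*, the main monocyte attractant, measured 45.8 and 33.6 CPM in negative sums and 112 and 77.0 in positive sums (1.22 ± 0.24, adjusted p = 6.0e-05, edgeR). *Ccl7* measured 36.0 and 14.3 CPM against 73.8 and 37.9 (1.28, adjusted p = 0.0015). Neither gene overlapped between the sets. *Cxcl12* (0.82), *Cxcl16* (0.90), *Ccl8* (1.13) and *Ccl5* (1.16) were also called. *Ccl5* was lower in slice 1 (42.5 to 22.5 CPM) and higher in slice 2 (21.5 to 67.5). *Cx3cl1*, a chemokine of neurons, was lower (-0.63). *Ccl2* and *Ccl7* were at 0.84 and 0.69 in the spots matched on both measures, and at 0.34 and 0.03 after thinning.

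Some macrophage genes were higher. Of 12 general macrophage genes 4 were higher and 0 lower (median 0.45), among them *Lyz2* (lysozyme), with 2890 and 2879 CPM against 4003 and 5217 (0.67, adjusted p = 0.0055, edgeR), and *Ms4a7* (0.90). Of the 6 genes of scar-associated macrophages *Spp1*, *Gpnmb* (0.49), *Fabp5* (0.54) and *Cd63* (0.48) were called, and *Trem2* (0.22) and *Cd9* (0.40) were not. *Pf4* of border-associated macrophages was called (0.64) and *Mrc1* (-0.20) was not. No gene of 7 that mark resting microglia passed, *P2ry12* at -0.35 and *Tmem119* at -0.14. The median of the 12 general macrophage genes was 0.07 after thinning and 0.22 with both measures matched. Summed over the 12 macrophage genes, the level was 296 and 307 per 10000 UMIs in the negative and positive set of slice 1 and 220 and 310 in slice 2.

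None of 14 proliferation genes tested passed, although *Ccna2* was at 0.80 (adjusted p = 0.085, edgeR) and *Mki67* at 0.48 (adjusted p = 0.20). Lymphocyte genes were too sparse to test, with 4 and 5 UMIs over 9 genes in the positive and negative sets of slice 1 and 36 and 23 in slice 2. Of 5 neutrophil genes *S100a8* alone was tested, at 19.6 and 22.5 CPM in slice 1 and 40.8 and 11.3 in slice 2. It was called lower (-1.48), with opposite signs in the slices. At 21 dpi 2 neutrophil genes were tested and 2 were lower (median -1.15), beside 0.702% of all genes tested there. Haemoglobin genes did not pass (0 of 4 tested). Of 5 pericyte and smooth muscle genes none passed, and of 8 endothelial genes *Cdh5* did (0.78).

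Genes of the surrounding brain were lower in positive spots. *Snap25*, a synaptic vesicle fusion protein, measured 520 and 946 CPM in negative sums and 221 and 460 in positive sums. Both negative sums lay above both positive sums. The log2 fold change was -1.11 ± 0.17 (adjusted p = 1.4e-07, edgeR), and *Snap25* was called after thinning (-0.76, adjusted p = 0.00070). In all 9 of 10 neuronal genes were lower and 0 higher, with a median of -1.09. The excitatory vesicle transporter *Slc17a7* was at -1.08 and *Gad2*, which makes the inhibitory transmitter, at -1.47. *Gad1* (-0.52) did not pass.

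Astrocyte genes were lower for 6 of 8 (median -0.69). The median was -0.20 after thinning and -0.23 with both measures matched. *Slc1a2*, the main glutamate transporter, measured 700 and 1178 CPM against 350 and 543 (-1.07 ± 0.17, adjusted p = 2.9e-07, edgeR), and it was called after thinning (-0.57, adjusted p = 0.040). *Gfap* was at -0.63. *Aqp4*, a water channel called at -0.55, was at 0.32 after thinning. Of 7 genes of reactive astrocytes *Cd44* was higher (0.87) and *Lcn2*, whose slices differed in sign, lower (-1.13), and *Vim* (0.40) did not pass. Of 8 oligodendrocyte genes 4 were lower and 0 higher, *Mbp* at -0.67, *Mobp* at -0.67 and *Mog* at -0.83 among them. The oligodendrocyte median was -0.57, and -0.30 with both measures matched. After thinning it was -0.04, with 3 of 8 genes above 0.

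Transcripts of the mitochondrial genome were lower for 7 of 9 genes and higher for 0 (median -0.63). The median was -0.30 after thinning and -0.31 with both measures matched. *mt-Nd4*, a subunit of respiratory complex I, measured 3793 and 6518 CPM against 2146 and 3912 (-0.78, adjusted p = 0.0010, edgeR), and *mt-Co1* was at -0.57 (adjusted p = 0.053). Summed over the 9 genes, the level was 600 and 382 per 10000 UMIs in the negative and positive set of slice 1, and 920 and 590 in slice 2. It differed between the sets beside every gene group above, whether or not that group changed, as did the summed neuronal level, at 15.9 and 6.57 per 10000 in slice 1 and 34.0 and 16.7 in slice 2. A UMI of at least 1 of the 10 neuronal genes was found in all but 1 of the 389 spots. Mitochondrial UMIs numbered 18571 over 31 negative and 12728 over 23 positive spots in slice 1. In slice 2 there were 129385 over 143 negative and 162512 over 192 positive spots. The lower mitochondrial level thus stood beside more total UMIs in the positive sums. The part of intact brain tissue within the spots in these results was not tested.

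Of 10 genes of meningeal fibroblasts and the arachnoid, 0 were higher and 3 lower, with a median of 0.08. *Ptgds*, the prostaglandin D synthase of the leptomeninges, measured 3292 and 186 CPM in the negative and positive sum of slice 1 and 2298 and 1741 in slice 2. *Ptgds* was lower in both slices, by -4.14 and -0.40 on the log2 scale, so that slice 1 decided the size of the call. The call was -1.88 ± 0.20 (adjusted p = 1.6e-17, edgeR), where neither the SE nor the p-value covers this difference between slices. DESeq2 did not call it (adjusted p = 0.46). *Slc13a3* (-1.08) and *Igfbp2* (-0.58) were lower too. *Foxc1*, a transcription factor of meningeal development, did not pass (0.45).

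**Figure D4:**
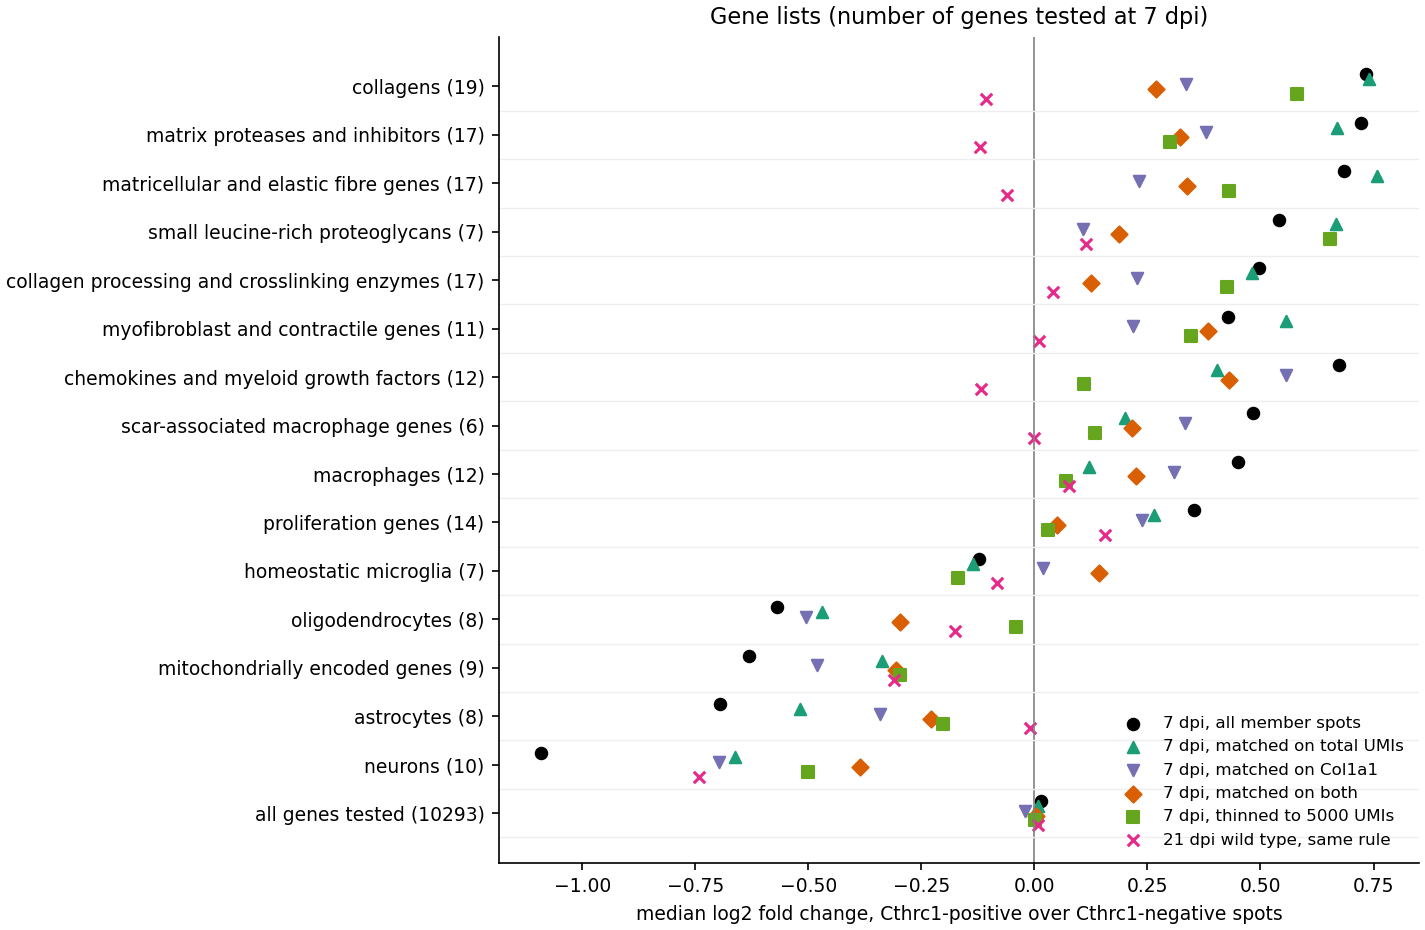
Median log2 fold change (x) of Cthrc1-positive over Cthrc1-negative spots for 15 gene lists and for all genes tested, with the number of genes tested at 7 dpi in brackets; black circles are all fibrotic spots at 7 dpi, coloured marks the matched or thinned spots, and crosses WT tissue at 21 dpi. Collagens lie at 0.73 with all spots, 0.27 with both measures matched and -0.11 at 21 dpi, and neurons at -1.09, -0.39 and -0.74.

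The largest changes were taken among called genes with the same sign in both slices and at least 50 UMIs. The 10 highest were *Cxcl9*, *Serpina3g*, *Cyp4f16*, *Adamts12*, *Nudt1*, *Ly6c2*, *Il1rn*, *Gm10134*, *Ms4a14* and *Ms4a4c*, from 1.92 down to 1.51. *Cxcl9*, a T cell chemokine induced by interferon gamma, measured 9.82 and 12.2 CPM against 28.9 and 48.5 (1.92 ± 0.35, adjusted p = 8.2e-06, edgeR), and its fold change was 0.12 after thinning. *Il1rn*, the antagonist of the interleukin-1 receptor, measured 39.3 and 33.6 CPM against 83.4 and 107 (1.54 ± 0.24). *Ly6c2*, a marker of inflammatory monocytes, measured 16.4 and 16.5 CPM against 86.6 and 40.1 (1.56 ± 0.31). For all 3 of these the positive sums lay above the negative ones, and *Il1rn* and *Ly6c2* were at 0.96 and 1.01 in spots matched on both measures. The others were sparse, with 1 to 13 UMIs in each slice 1 sum. Both slice 1 sums of *Cxcl9* and the negative slice 1 sums of *Il1rn* and *Ly6c2* lay in that range too.

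The 10 lowest were *Trank1*, *Ccdc92*, *Rtn4r*, *Cyp46a1*, *Ptgds*, *Tmem198*, *Dab1*, *Cux2*, *Thbs4* and *Pcdh8*, from -2.37 to -1.71. *Cyp46a1*, the neuronal enzyme that clears brain cholesterol, measured 29.5 and 48.7 CPM against 12.8 and 12.0 (-1.89 ± 0.34), without overlap. *Rtn4r* encodes the Nogo receptor, *Dab1* an adaptor of Reelin signalling and *Cux2* a factor of upper-layer neurons, and *Thbs4* a thrombospondin. Apart from *Ptgds*, these genes had 1 to 9 UMIs in each slice 1 sum.

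Spots were also summed by their number of *Cthrc1* UMIs, which climbs with depth and with *Col1a1*. Spots with 0, 1, 2, 3 to 5 and 6 or more UMIs numbered 143, 82, 51, 46 and 13 in slice 2, with a median depth of 8460, 10056, 13150, 16542.5 and 24170. Their median *Col1a1* level, which the rule had used, was 13.5, 19.3, 26.9, 30.8 and 41.5 per 10000. *Col3a1* measured 19.5, 26.2, 38.8, 50.4 and 59.1 UMIs per 10000 in these classes and *Col5a2* 2.38, 3.74, 4.01, 5.73 and 8.55. *Snap25* went the other way, at 9.40, 6.01, 4.22, 4.16 and 2.01. In slice 2 every step of these 3 genes had the same direction, with no test. In slice 1, with 31, 8, 3, 7 and 5 spots, *Col5a2* measured 1.97, 2.71, 3.55, 3.73 and 5.39, and *Col3a1* levelled off at 30.3, 28.6 and 30.2 in the upper 3 classes. *Mmp13*, *Spp1*, *Postn* and *Lyz2* went up and down between classes in both slices.

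**Figure D5:**
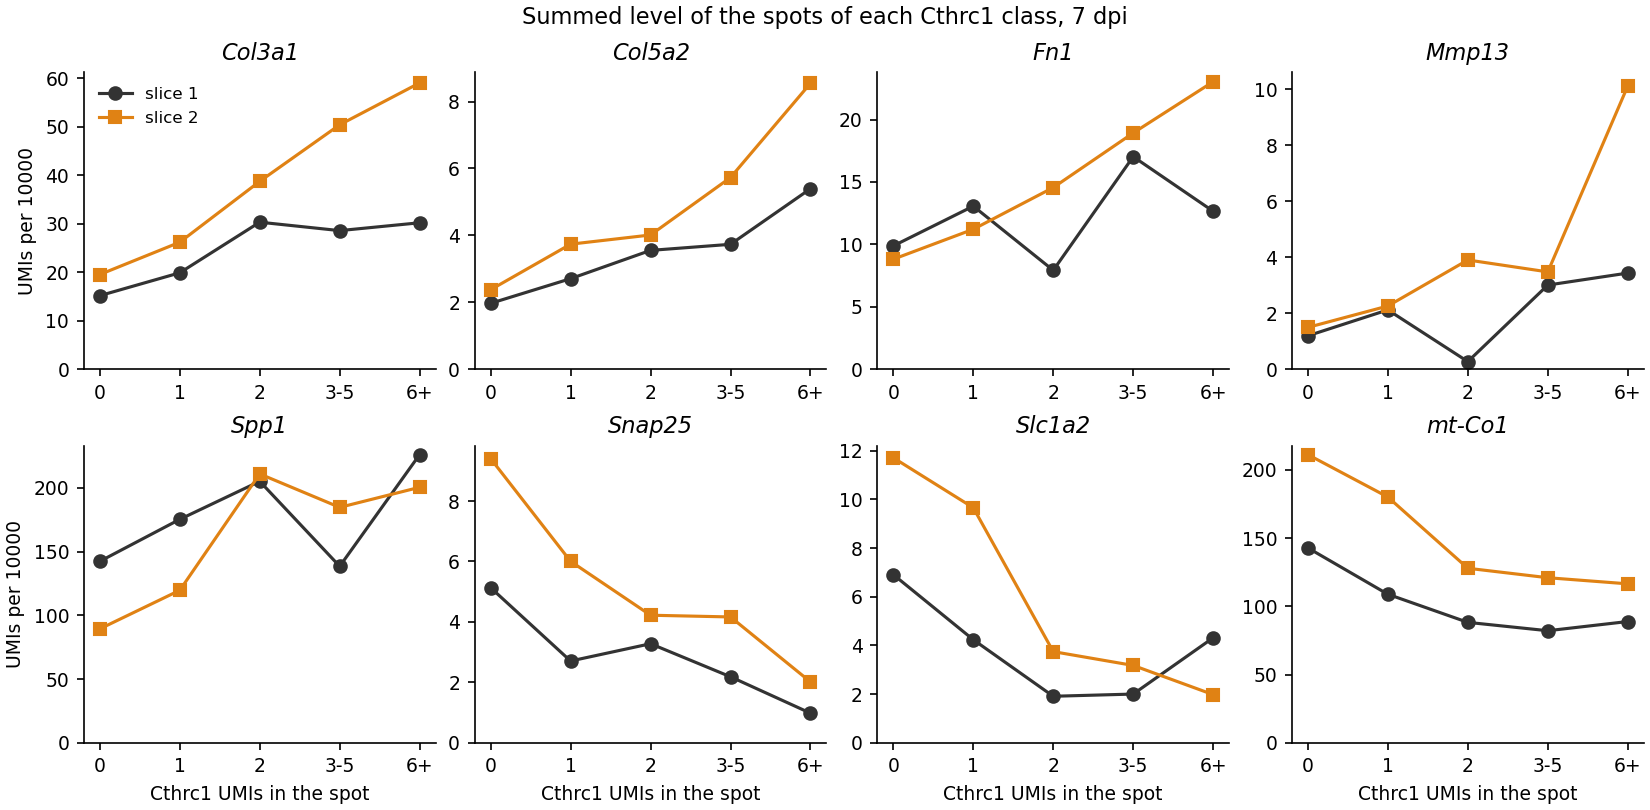
Summed level in UMIs per 10000 (y, linear from 0) of 8 genes in the spots with 0, 1, 2, 3 to 5 and 6 or more Cthrc1 UMIs at 7 dpi, with 1 line per slice and no error bars, since each point is 1 sum. Col3a1 goes from 19.5 to 59.1 and Snap25 from 9.40 to 2.01 over the classes of slice 2, while slice 1 has only 3 to 8 spots in each class above 0.

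Single spots spread widely around these sums. The median *Col3a1* level was 7.92 per 10000 in negative and 23.8 in positive spots of slice 1, and 16 and 32.6 in slice 2. Negative spots reached 58.3 and 80.4 and positive spots went down to 3.79 and 2.84, so that the sets overlapped spot by spot. *Mmp13* was at 0 in 42 of 192 positive and 63 of 143 negative spots of slice 2. *Snap25* had a median of 4.83 and 1.81 in slice 1 and 7.36 and 3.80 in slice 2.

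The same rule was applied to WT tissue at 21 dpi, whose spots had no part in choosing those at 7 dpi. There 81 of 340 fibrotic spots were positive, and the sets summed to 678445 and 1481195 UMIs in slice 1 and 688443 and 2109907 in slice 2. Of 10969 genes 100 differed (0.912%), 23 higher (0.21%) and 77 lower (0.702%), by the same edgeR test. No collagen of 19 was called at 21 dpi and their median was -0.11, beside 0.01 over all genes. Neuronal genes were lower for 5 of 10 (median -0.74), *Snap25* at -0.75 and *Camk2a* at -0.99. *Mmp13* was at 0.51 (adjusted p = 0.070). Positive spots were deeper here too, with medians of 18113 and 16931 UMIs against 10149 and 13879. Matching on both measures gave 77 calls, of which 14 higher and 7 lower were shared with the 100, and 72 of 88 of the 100 that could be tested kept their sign. Thinning gave 0 calls (324 at an unadjusted p under 0.05). All 4 haemoglobin genes tested were lower at 21 dpi, *Hbb-bs* at -1.12.

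Genes higher at both times were *Ccl8*, *Cyp1b1*, *Mmp3* and *Plat*, 4 genes or 1.13% of those higher at 7 dpi and 17.4% of those higher at 21 dpi. Genes lower at both times numbered 65, or 10.2% of the former and 84.4% of the latter. *Nnat*, *Ptgds* and *Ttr* were lower at 7 dpi and higher at 21 dpi. *Plat* encodes tissue plasminogen activator, and *Ttr* transthyretin of the choroid plexus.

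Tested directly, the difference between the sets itself differed between 7 and 21 dpi for 15 of 11628 genes (0.129%) in a fit of all 8 sums. *Col3a1* measured 1532 to 2885 and 1932 to 4008 CPM at 7 dpi, and 1901 to 1884 and 2834 to 2427 CPM at 21 dpi, from negative to positive. Both slices at 7 dpi were higher in the positive sum, and neither slice at 21 dpi was. The difference of the log2 fold changes was 1.11 ± 0.22 (adjusted p = 0.016, edgeR), and it was 1.07 for *Col5a2* and 1.06 for *Col1a2*. *Grb10*, an adaptor that damps insulin and IGF signalling, was at 1.47, *Fblim1*, a focal adhesion protein, at 1.43 and the lipid scavenger receptor *Cd36* at 1.42. On the other side *Ptgds* was at -2.77, with 7859 to 13287 and 4428 to 9306 CPM at 21 dpi, *Slc13a3* at -1.84, *Ttr* at -1.65 and *Nnat* at -1.51. *Clu*, *Chchd10*, *Enpp2* and *Mt3* were also called.

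These calls too depended on how spots were taken. With both measures matched 11 genes were called, 4 of them among the 15, and after thinning 0 were (294 at an unadjusted p under 0.05). The sets were also unlike between the times in pooled *Col1a1* and in *Cthrc1* UMIs per positive spot, and the part of this in the calls was not tested. Time cannot be told apart from the capture area, nor from the sex of the mice as far as RNA shows it. The slices at 7 dpi held 1597 and 1281 UMIs of *Xist* and 1 and 0 of *Ddx3y*, and the WT slices at 21 dpi 4 and 1 of *Xist* and 1195 and 805 of *Ddx3y*.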

How the data were processed

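Raw UMI counts per gene and Visium spot, with spot positions on the array, were deposited by the authors for 4 capture areas. They had been made with Space Ranger 2.0.0 on mm10, per the labels, with no normalization. Of the remaining deposited numbers, the array positions were used and the image scale factors were not.

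Spots over tissue were kept, and touching spots were joined into connected pieces, 2 per area, each taken as 1 slice and 1 mouse. No doublet caller was run, since a spot is a region. Counts were summed per slice and set, scaled by TMM, and tested with edgeR 4.0.16 in R 4.3.3 (glmQLFit and glmQLFTest, slice as a block, Benjamini-Hochberg adjustment at 0.05, low counts removed with filterByExpr). The groups compared share the slice, so the block pairs the 2 sets of 1 animal. The test of 7 against 21 dpi used all 8 sums. *Cthrc1* and *Col1a1* were left out of counts of calls. CPM values are per 1e+06 UMIs of the tested genes after TMM, and spot levels are UMIs per 10000. P-values rest on a spread estimated from very few sums and shared wholly (7 dpi) or largely (7 against 21 dpi) across genes.

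Spots were thinned to 5000 UMIs by random draws, and the sets were then made again from the *Cthrc1* UMIs left. For matching, spots were paired 1 to 1 within a slice at 0.25 SD of log depth, log *Col1a1* or both. DESeq2 1.42.0, other minimums, no TMM, no filter, no slice block and leaving out a slice were the other alternatives. The genes named are the listed genes, the 10 largest called changes in each direction with at least 50 UMIs and 1 sign in both slices, and genes called between times. A few genes that this rule names are not reported here. The spots, gene lists and tests were chosen with earlier results of these data known. Gene positions came from GENCODE M21 and promoters from RefSeq (GRCm38.p6).

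In simulated counts for the comparison at 7 dpi (10295 genes, 200 changed), 53% of genes changed by 1 on the log2 scale and 90% of those changed by 2 were recovered, and 4.03% of the calls were false. For 7 against 21 dpi (11630 genes) these were 17%, 73% and 2.17%. The changed genes were drawn among those with at least 50 UMIs over the sums. Recovery of sparser genes was not simulated. Every gene was drawn with the same spread, taken from the real sums, and unchanged genes had the same expected level in both sets. Differences of *Col1a1* or tissue between the sets were not simulated, so the share of false calls does not carry over to the real calls.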

Additional observations from a re-analysis of the deposited data

Results flagged for a closer look

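For 10 genes named here the difference between Cthrc1-positive and Cthrc1-negative fibrotic spots differed between 7 and 21 dpi by the interaction term of the edgeR fit. The value is the log2 fold change at 7 dpi minus that at 21 dpi. It was 1.47 ± 0.33 (SE, adjusted p = 0.0455) for *Grb10*, 1.43 ± 0.32 (adjusted p = 0.0455) for *Fblim1*, 1.42 ± 0.30 (adjusted p = 0.0201) for *Cd36*, 1.11 for *Col3a1*, 1.07 for *Col5a2* and 1.06 for *Col1a2*. *Grb10* measured 32.6 to 80.0 and 38.0 to 88.7 CPM from negative to positive at 7 dpi, and 54.0 to 36.6 and 50.8 to 51.9 CPM at 21 dpi. Both slices at 7 dpi were higher in the positive sum, and at 21 dpi the slices differed in sign. None of the 6 genes above was called with *Col1a1* or with both measures matched.

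On the negative side the value was -1.51 ± 0.28 (adjusted p = 0.0102) for *Nnat*, -1.65 ± 0.26 (adjusted p = 0.0017) for *Ttr*, -1.84 for *Slc13a3* and -2.77 for *Ptgds*. *Ttr* measured 453 to 403 and 500 to 201 CPM at 7 dpi and 538 to 732 and 2739 to 5880 CPM at 21 dpi. It was lower in the positive sum of both slices at 7 dpi and higher in both at 21 dpi. Time here coincides with the capture area.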

How the results depend on the processing

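At 7 dpi the 354 higher and 637 lower genes became 11 and 6 after thinning, 0 and 0 with both measures matched or with total UMIs matched, 2 and 4 with *Col1a1* matched, 79 and 279 at 10000 UMIs or more, 68 and 194 at 10 or more *Col1a1* UMIs per 10000, 215 and 547 for 2 or more *Cthrc1* UMIs against 0, 95 and 316 without edge spots, 23 and 33 with DESeq2, 171 and 480 without TMM, and 291 and 526 without the filter. At 21 dpi the 100 calls became 0, 77, 16, 10, 36, 18, 120, 99, 1, 12 and 90 (thinned, both matched, UMIs matched, *Col1a1* matched, 10000 UMIs, 10 *Col1a1*, 2 *Cthrc1*, no edge, DESeq2, no TMM, no filter). The 15 calls between the times became 0, 11, 0, 2, 89, 49, 5, 2, 3, 10 and 39 in the same order, and 4 to 19 with 1 slice left out. Without the slice block, which pairs both sets of 1 slice, 0 higher, 0 lower, 0 at 21 dpi and 0 between the times remained (917, 415 and 360 at an unadjusted p under 0.05). The causes of these changes were not tested. Each number counts the calls of that setting, and the genes were not always the same. At 21 dpi the 120 calls with 2 or more *Cthrc1* UMIs shared 3 higher and 38 lower genes with the 100. Between the times the 5 calls of that setting shared 2 genes with the 15. All 15 stayed called without the filter. With 1 slice left out, some of the 15 lost the call in every fit, and some fits called other genes. With 1 slice alone there are no residual degrees of freedom, so log2 values without a test were computed for the comparison at 7 dpi, and no counts.

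Of 1591 alternative values for 120 named genes called at 7 dpi, 666 kept the call or, without a test, moved by less than the spread between slices, 845 lost the call, 65 moved by more than it and 15 turned sign. Without slice 1 all 120 counted as kept, which says little, since slice 2 held most UMIs of the fit. Without slice 2, 48 of 120 stayed, 65 moved and 7 turned. The 15 included *Col11a1* (-0.16 with *Col1a1* matched), *Dcn* (-0.11 with both matched), *Mmp3* (-0.43 thinned), *Ccl5* (-0.33 thinned, -0.032 with UMIs matched), *Aqp4* (0.32 thinned, 0.050 with both matched) and *Lcn2* (0.20 thinned). The others lay in slice 1 alone. With 1 slice left out the range was -0.073 to 1.01 for *Dcn*, -0.29 to 1.22 for *Mfap5*, -0.12 to 0.80 for *Tgfbr2*, -0.91 to 1.65 for *Ccl5*, -0.74 to 1.81 for *Pdgfc*, -1.33 to 1.45 for *Lcn2* and -1.85 to 0.19 for *S100a8*, the only neutrophil gene tested. Between the times *Chchd10* was 0.14 when thinned, and *Enpp2* and *Ttr* were 0.12 and 0.28 with 2 or more *Cthrc1* UMIs. Of 404 list medians 287 moved by less than the spread between slices. Among these were 26 of 29 without slice 1 and 14 of 29 without slice 2. That spread is wide where the slices disagree, so such lists and genes are more easily counted as kept. Slice 1 held 54 of 389 spots, and genes with few UMIs there rest on slice 2.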
